A study of Mus musculus with 7 samples.

Results

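Gpnmb, Spp1, Trem2, Apoe, Fabp5, Lgals3, Lpl, Cd9 and Plin2 are genes by which lipid-associated macrophages are often recognized. They were listed as 9 genes by symbol, selected on earlier results of the same libraries, and 8 of them had a row among the 23930 genes of the deposited table. Fabp5 was not analysed here. All samples were GFP-positive mononuclear cells sorted from the hind leg muscles of tamoxifen-induced mice, which the labels describe as Inducible Pax7-GFP on C57BL/6 and as littermates. In these mice CreERT2 is expressed from the Pax7 locus, so that a cell in which Pax7 was active, and its progeny, keep the fluorescent label. The mice were 12 weeks old at induction, spent 4 weeks in room air (normocapnia, NC, 3 libraries) or in a chamber with raised CO2 (hypercapnia, HC, 4 libraries), and were 16 weeks old at collection. The study describes a cardiotoxin injury before collection and mice of both sexes, while the labels mention neither. The title of the deposited table names a time in hours that the study gives for cells in culture, so whether the cells were freshly isolated, as the study describes, or cultured was not settled. The number that ends the genotype label differs from sample to sample and was taken as a spreadsheet fill and not as a strain. Nothing states whether each library came from a separate animal or from a pool, so the spread between libraries may be partly technical.

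Lipid-associated macrophages take up lipid and the debris of dying cells, and they appear in fatty tissue, in plaques and in injured muscle. The receptor Trem2 senses lipids on such debris, the lipoprotein Apoe and the lipase Lpl move and split lipids outside the cell, and Plin2 coats the droplets in which lipid is stored. Gpnmb is a membrane glycoprotein of lysosomes and of the cell surface, Spp1 (osteopontin) is a secreted ligand of integrins and Cd44, Lgals3 (galectin-3) binds sugar chains on damaged membranes, and Cd9 is a tetraspanin that organizes membrane proteins.

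The AmpliSeq panel reads 1 amplicon for each gene, so values compare a gene between libraries and not genes with each other. The unit is RPM, the reads of a gene after each library was brought to an equal total, with 14527445 to 23388710 reads in a library, and 3 reads correspond to 0.128 to 0.207 RPM. The member with the fewest reads in any library was Lgals3 with 193 in NC3, so counting error was small beside the spread between libraries. The labels call the cells Pax7+ stem cells, yet Pax7 itself ran from 4.34 RPM in NC3 to 268 RPM in NC1, and macrophage genes were abundant in all libraries. Lyz2, the lysozyme of myeloid cells, was at 8354, 13313 and 29108 RPM in NC1 to NC3 and between 13410 and 16728 RPM in HC. Of the 25 macrophage markers, 24 reached 1 RPM in some library, whereas the complement gene C1qa stayed at or below 0.452 RPM. Its partner C1qb averaged 644 RPM and C1qc 6.69 RPM, and Fth1, a ferritin gene that every cell uses, averaged 0.044 RPM, so a row near 0 need not mean low expression (all 4 were chosen after their values were seen). In bulk RNA, fewer cells of a type and less RNA per cell cannot be told apart. By Xist and the Y-linked gene Ddx3y, NC1, NC2, HC1 and HC2 were Xist-high and NC3, HC3 and HC4 were Y-linked, so the groups were not balanced for sex. Each pair of libraries was also compared by a chi-square over its degrees of freedom, lower where reads are more alike. It was 24.6 for HC1 with HC2 and 27.3 for HC3 with HC4. The other HC pairs had 104.6 to 134.5 and the NC pairs 371.6 to 528.2. HC may thus hold fewer than 4 independent samples, which was not tested.

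Gpnmb was the member that separated the groups. NC1, NC2 and NC3 held 81.4, 50.8 and 94.6 RPM, and the HC libraries, in order, 624, 606, 389 and 392 RPM. Every HC library lay above every NC library, and the lowest HC value was still several times the highest NC value. The means were 75.6 ± 22.5 RPM (SD, n = 3) in NC and 502.7 ± 130.1 RPM (SD, n = 4) in HC, which on the log2(RPM + 1) scale is a difference of 2.73 with a standard error of 0.30, or 6.62-fold. Since the members were chosen by this contrast, it is given as a description and without a test.

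**Figure D1:**
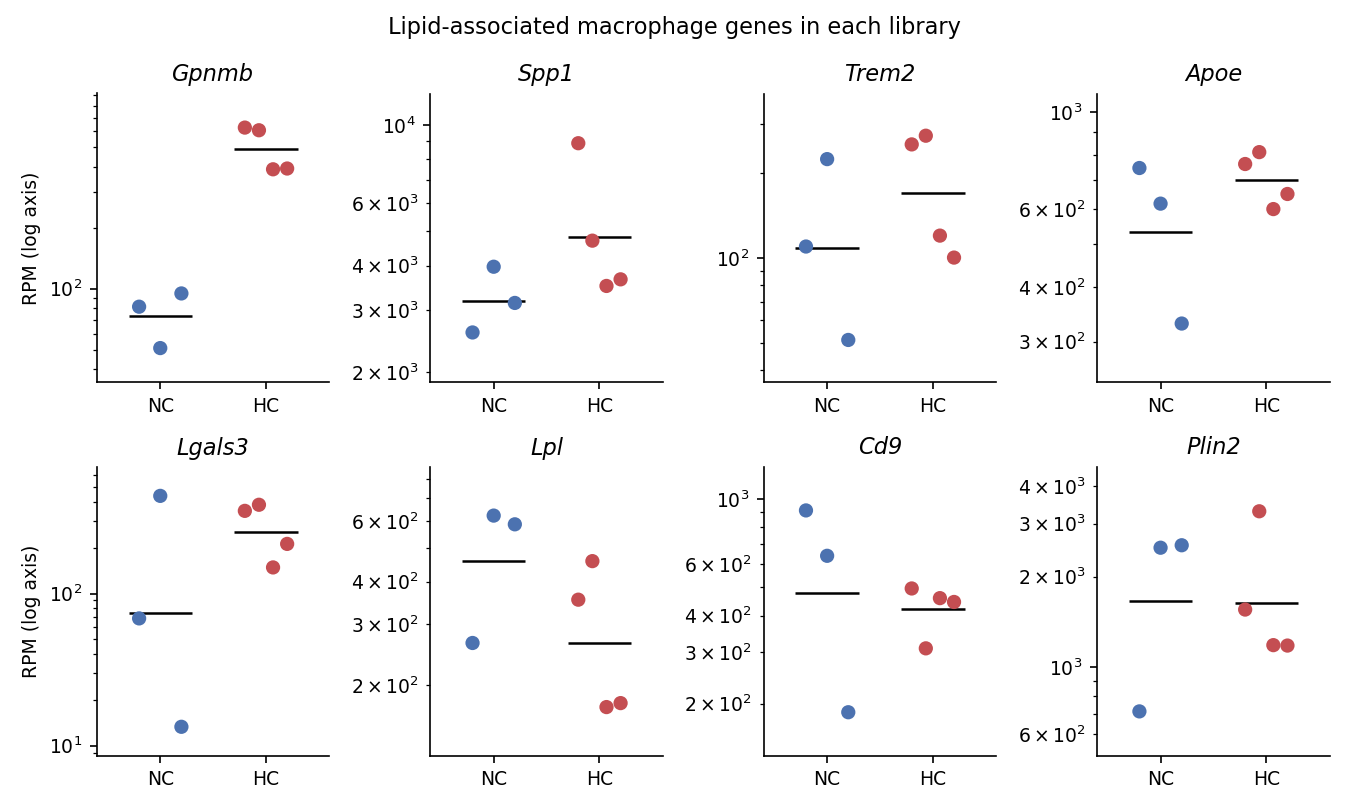
Level of each of the 8 measured members in RPM (log axis, a separate scale in each panel) in the 3 normocapnia (NC, blue) and 4 hypercapnia (HC, red) libraries, in library order from left to right; black lines are group means taken on log2(RPM + 1). Gpnmb has no overlap between groups, with 50.8 to 94.6 RPM in NC and 389 to 624 RPM in HC, and the other 7 genes overlap.

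Since no HC library overlapped an NC library, the groups had to separate within each sex too, and this adds no support. Among the Xist-high libraries HC exceeded NC by 3.24 on the log2 scale for Gpnmb, and among the Y-linked libraries, where NC was 1 library, by 2.03. Within HC, the Xist-high libraries (624 and 606 RPM) lay above the Y-linked libraries (389 and 392 RPM), an order that NC did not share (81.4 and 50.8 against 94.6 RPM). The HC libraries split the same way in composition, with mean log2 levels in HC1 to HC4 of 8.31, 8.28, 7.80 and 7.86 for macrophage markers, 4.37, 4.24, 5.88 and 5.42 for satellite cell markers and 2.68, 2.51, 5.22 and 4.74 for endothelial markers. The gap in Gpnmb within HC was 0.65 on the log2 scale and 0.19 relative to the macrophage markers, so sex and composition cannot be told apart here.

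Secreted and lipid-handling members of the same set overlapped between groups. Spp1 was at 2588, 3973 and 3138 RPM in NC and at 8888, 4709, 3505 and 3659.5 RPM in HC. HC1 stood highest and HC3 and HC4 fell below NC2, and the log2 difference was 0.60 with a standard error of 0.38 (0.30 without HC1). Apoe was at 746, 619 and 330.0 RPM in NC against 761, 810.5, 601 and 651 RPM in HC, a log2 difference of 0.39 with a standard error of 0.30. NC3 was the low library, and NC1 and NC2 lay within the HC range (0.045 without NC3, 0.63 without NC1). Lpl, the lipase, went the other way, at 265, 624 and 588 RPM in NC and 354, 459, 172 and 177 RPM in HC. Its log2 difference was -0.79 with a standard error of 0.51 (-1.19 without NC1), and the low values were those of the Y-linked HC libraries.

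The receptor Trem2 was at 109.9, 225 and 51.1 RPM in NC and at 254, 272.5, 120.1 and 100.3 RPM in HC. The Xist-high HC libraries were above all NC libraries, the others were not, and the log2 difference was 0.65 with a standard error of 0.64 (0.11 without NC3, 1.17 without NC2). Lgals3 varied most within NC, at 68.6, 439 and 13.3 RPM, a 33.0-fold range, whereas HC held between 148 and 383 RPM. Its log2 difference of 1.75 had a standard error of 1.19, and it was 0.55 without NC3, 3.02 without NC2, 0.64 in edgeR and 0.63 in DESeq2. The tetraspanin Cd9 was at 914.5, 639.9 and 187 RPM in NC and at 495, 309, 459 and 445 RPM in HC, so that all HC values lay inside the NC range (log2 difference -0.19, standard error 0.58). Without NC1 the Cd9 difference was 0.28, without NC2 it was 0.02 and without NC3 it was -0.86. Plin2, the droplet coat protein, was at 712, 2494 and 2541 RPM in NC and 1553, 3296, 1183 and 1179 RPM in HC. Its log2 difference was -0.02 with a standard error of 0.62, and its sign was not stable (-0.62 without NC1, 0.28 without NC2).

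**Figure D2:**
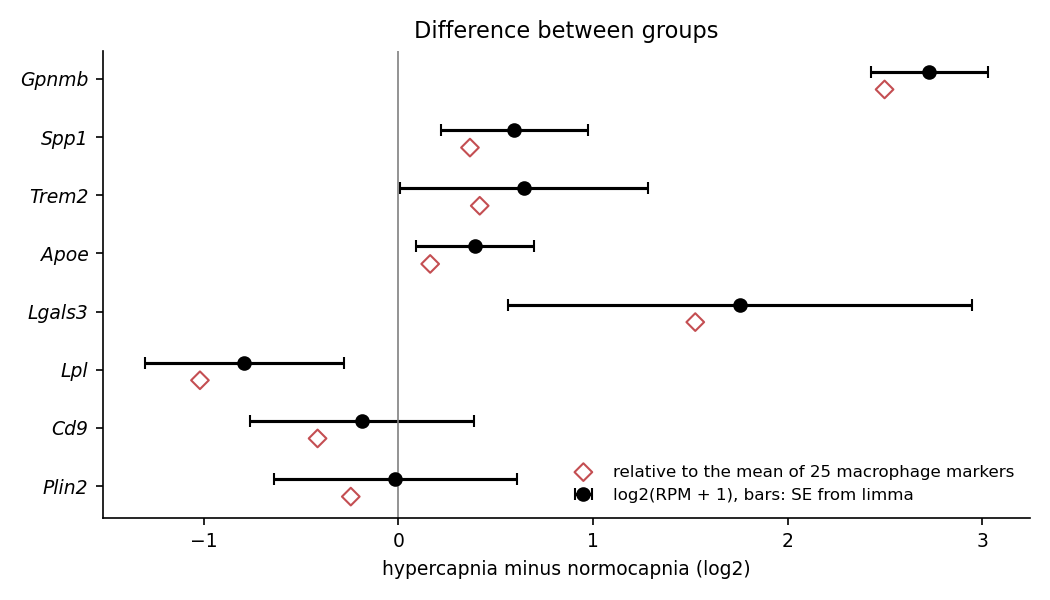
Difference of group means (hypercapnia minus normocapnia, log2) for each member: filled circles on log2(RPM + 1) with the standard error from limma as bars, open diamonds after the mean of 25 macrophage markers was subtracted in each library. Gpnmb is at 2.73 and 2.50, Lgals3 at 1.75 with a standard error of 1.19, and Lpl at -0.79 and -1.02.

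Of the 8 members, 5 were higher and 3 lower in HC (Plin2 turned above 0 in 8 of 16 alternatives, at most to 0.29 without NC3, and Cd9 in 2, without NC1 and NC2), with a median log2 difference of 0.49 (0.39 without Gpnmb, 0.20 without NC3), beside 0.02 over all genes and 0.16 over the 12504 genes that averaged 1 RPM or more. The study's thresholds, a p below 0.05 with a change over 1.5-fold, were applied to the p of limma before adjustment, and by these 2.57% of all genes were called (615 genes), 1.43% higher and 1.14% lower in HC. The called members came to 1, Gpnmb, a count that the choice of members bears on and that is not read further. After Benjamini-Hochberg adjustment 0% of genes passed in limma (lowest adjusted p 0.351, against 1114 genes at an unadjusted p under 0.05), while on whole reads edgeR called 802 genes and 0 after adjustment, and DESeq2 called 1304 and 29. Groups without overlap were found in 9.62% of the 8229 genes that averaged 10 RPM or more, and in 1 of the 8 members. Spread within NC exceeded that within HC for 6 of the 8 members, and for 88.6% of the same 8229 genes.

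Sex and exposure also entered a model with their interaction, in which Y-linked NC was 1 library. In limma 3.2% of all genes passed an adjusted p of 0.05 for the interaction. No member did, and the lowest adjusted p was 0.127 for Cd9, followed by 0.156 for Apoe and 0.227 for Gpnmb. Differences had the same sign in both sexes for 6 members. Cd9 (-0.97 in Xist-high, 1.27 in Y-linked libraries) and Plin2 (0.76 and -1.11) had opposite signs.

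Macrophage markers were set beside these values, and their part in the members' differences was not tested. The 25 macrophage markers had a mean log2(RPM + 1) of 7.52, 8.22 and 7.77 in the NC libraries, and in the HC libraries of 8.31, 8.28, 7.80 and 7.86, with overlap between the groups. Csf1r, the receptor for the macrophage growth factor, was at 337 to 537 RPM in NC and 340.3 to 438 RPM in HC, and Cd68, a lysosomal marker, at 729 to 1910 RPM and 1541 to 2185 RPM. Adgre1 (F4/80) was called higher, at 109.0, 149 and 70.5 RPM in NC against 392, 429, 151 and 184 RPM in HC (log2 difference 1.31, standard error 0.49, limma adjusted p 0.915). With Mpeg1 and Aif1, named after their values were seen, it made 3 called markers of 25, all higher (12%, beside 1.43% of all genes), and the median of the list was 0.05. The called markers came to 1 with median-of-ratios scaling and to 4 with quantile normalization.

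The members were then set against these markers within each library. The log2 level of Gpnmb minus the marker mean was -1.15, -2.52 and -1.19 in NC and 0.98, 0.96, 0.80 and 0.76 in HC. The difference was 2.50. The marker mean itself differed by 0.23 between the groups, and Gpnmb was chosen for its contrast. The value is therefore a description, and the part of macrophage content was not tested. Spp1 was at 3.74 to 3.85 in NC and 3.92 to 4.81 in HC on this scale (difference 0.37), of which HC1 carried most (0.15 without it). The share of all genes without overlap on this scale was not computed, so the lack of overlap of Spp1 is not read further. The differences of the other members were 1.53 for Lgals3, 0.42 for Trem2, 0.16 for Apoe, -0.24 for Plin2, -0.42 for Cd9 and -1.02 for Lpl, with overlap in each, and the median of the 8 was 0.27 (0.0069 without NC3, 0.47 without NC1).

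Gpnmb was also set against the other 7 members in the same library. Their mean log2(RPM + 1) was 8.74, 9.68 and 8.23 in NC and 9.60, 9.62, 8.81 and 8.87 in HC. Gpnmb minus this mean was -2.37, -3.98 and -1.65 in NC and -0.31, -0.38, -0.20 and -0.25 in HC. On this measure the 4 HC libraries were nearly alike (SD 0.08) and the NC libraries far apart (SD 1.19). The close pairs HC1 with HC2 and HC3 with HC4 limit what the SD of HC can show. NC2, the NC library with the most Trem2, Lgals3 and Spp1, had the least Gpnmb.

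**Figure D3:**
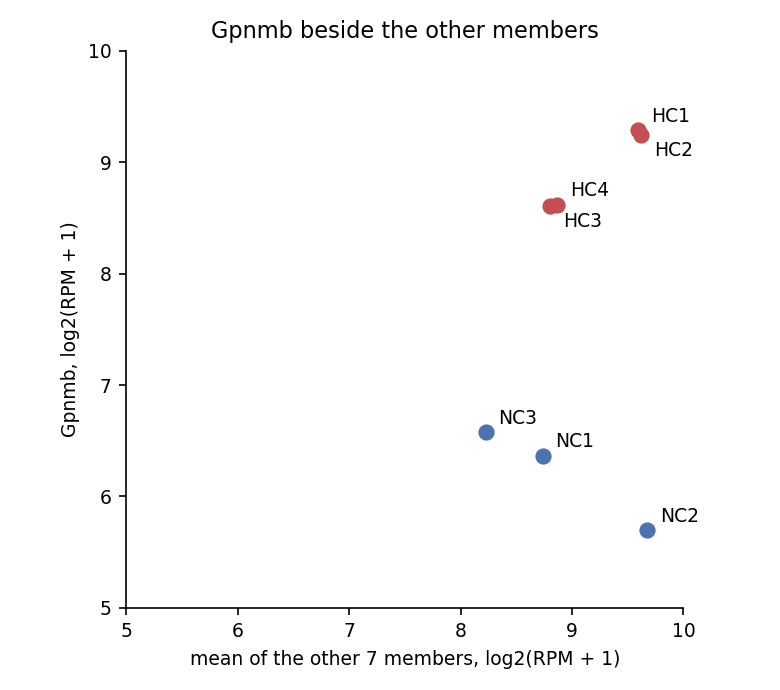
Level of Gpnmb against the mean level of the other 7 members in each library, both as log2(RPM + 1), with normocapnia in blue and hypercapnia in red. The mean of the other members spans 8.23 to 9.68 in NC and 8.81 to 9.62 in HC, while all 4 hypercapnia libraries lie above the 3 normocapnia libraries for Gpnmb.

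Promoters from RefSeq (GRCm38.p6, 250 bases before to 50 after each start) matched 7 of the 8 measured members. Lpl had no entry. They were searched on both strands for 4 motifs of factors known in macrophages: the E-box CACGTG, the M-box TCATGTG bound by Mitf and its relatives, the AP-1 motif TGANTCA and the PU.1 motif GAGGAAGT, of which no motif contains another. CACGTG was found in Plin2 (7.15% of all 32851 promoters hold it), TGANTCA in Gpnmb and Trem2 (7.81%), GAGGAAGT in Spp1 (3.2%), at position -113, and TCATGTG (3.77%) in no member. A match describes these letters in this window and is not shown to be a bound site. The stretches below are those of Gpnmb, the member that differed, Trem2, which overlapped between groups, and Plin2, with the E-box. Gpnmb and Trem2 match the same loose pattern with different letters, TGACTCA in Gpnmb and TGAATCA in Trem2. They run 5′ to 3′ from 100 bases before to 20 bases after the start, with the motif in capitals.
Gpnmb (chr6:49036418-49036537, plus strand): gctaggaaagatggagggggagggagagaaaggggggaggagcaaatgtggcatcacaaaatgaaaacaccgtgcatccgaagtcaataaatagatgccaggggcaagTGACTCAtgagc
Trem2 (chr17:48346301-48346420, plus strand): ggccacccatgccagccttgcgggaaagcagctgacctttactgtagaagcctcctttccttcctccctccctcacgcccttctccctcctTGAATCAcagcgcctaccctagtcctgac
Plin2 (chr4:86670040-86670159, minus strand): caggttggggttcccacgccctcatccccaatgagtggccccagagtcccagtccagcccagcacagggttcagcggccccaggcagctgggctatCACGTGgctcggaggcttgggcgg
The motif began at position 9 in Gpnmb, at -9 in Trem2 and at -4 in Plin2, with the start base counted as 1.

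A separate list of regulators known in macrophages and lipid handling was taken next, and its genes were not matched to the motifs above. Of 22 regulators in the table, limma called 3, all higher in HC (13.6%, beside 1.43% of all genes), and the median log2 difference was -0.03. Nr1h3 (LXR alpha), a sterol-sensing nuclear receptor, was at 8.56, 6.41 and 9.16 RPM in NC against 21.2, 26.5, 14.2 and 19.5 RPM in HC (log2 difference 1.22, standard error 0.23). Pparg, which drives genes of lipid uptake, was at 12.4 to 17.3 RPM in NC and 25.3 to 31.4 RPM in HC (0.85, standard error 0.15), without overlap. Hif1a, the hypoxia factor, overlapped (128 to 248 against 213 to 499 RPM, 1.01, standard error 0.39), and its call was lost in 7 of 16 alternatives, those with the replicate block or the sex term and those without NC2, NC3, HC1, HC3 or HC4. None passed adjustment (lowest adjusted p 0.65 in limma). Maf, the regulator with the highest mean RPM (a rule for naming a gene of each list, not a comparison of expression between genes), was not called (279 to 1012 RPM in NC, 503 to 957 RPM in HC). Mitf, Tfe3 and Tfeb, factors known to act on Gpnmb and on lysosomal genes, were looked at after their values were seen. Mitf was at 33.8, 73.5 and 177 RPM in NC against 39.4 to 63.7 RPM in HC, Tfe3 at 37.3 to 72.7 against 28.8 to 43.6 RPM, and Tfeb at 45.6 to 110.9 against 51.5 to 66.2 RPM. All 3 overlapped between groups, with differences of -0.60, -0.51 and -0.38, and none was called. The highest value of each was in a single NC library, NC3 for Mitf and Tfeb and NC2 for Tfe3, so these differences rest partly on those libraries.

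Other genes known from lipid-associated macrophages were followed in a list of 45, of which 43 were in the table. Limma called 10 of them, all higher in HC, which is 23.3% beside the 1.43% of all genes called higher. Called or not, 29 were higher and 14 lower with a median of 0.44. In a fit of only the 12504 genes that averaged 1 RPM or more, 558 genes were called, and 9 of this list. This list, like the others here, was drawn up with earlier results of these libraries known, so such shares are descriptions. The 5 with the smallest p are given first. Ctsd, an aspartic protease, was at 3006, 5772 and 2100 RPM in NC and between 9468 and 17379 RPM in HC (log2 difference 1.98, standard error 0.41). Ctsb, a cysteine protease, was at 2030 to 5768 RPM against 7799 to 12103 RPM (1.49, standard error 0.39), and Psap, the precursor of proteins that help lysosomal enzymes reach lipids, at 1856 to 3715 RPM against 4343 to 5912 RPM (0.96, standard error 0.25). Hexa, which degrades gangliosides, was at 113 to 129.8 RPM against 202 to 335 RPM (1.04, standard error 0.20). Syngr1, a vesicle membrane protein, was at 11.6 to 15.9 RPM against 28.6 to 58.6 RPM (1.53, standard error 0.29). Other lysosomal genes of the list were not called, among them Ctsl (-0.61), Gm2a (-0.083), Grn (0.51) and Lipa (0.68), named after their values were seen. In the 5 genes with the smallest p the groups did not overlap, which picking them by p makes likely. Over the whole list 9 of 43 genes had no overlap, all higher in HC. Beside this stand 9.62% of the 8229 genes that averaged 10 RPM or more, in either direction. None of the list passed adjustment (lowest adjusted p 0.65 in limma). The other called genes, Ms4a7, Il7r, Cstb, Acp5 and Vat1, were named after their values were seen and had differences from 0.71 to 1.52.

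The genes around each member were counted beside the 2.57% of all genes called, at which lists of this size hold few calls or none. For Trem2, 0 of 20 genes of its signalling were called (median 0.42). Its adaptor Tyrobp, picked after its values were seen, was at 1245, 1363 and 2512 RPM in NC against 1109 to 1403 RPM in HC. Ms4a4a had the highest mean RPM of the list through NC3, at 8065 RPM there and 587 to 1578 RPM in the other libraries. For Gpnmb and Spp1, 0 of 12 receptor genes were called (median 0.15), and 2 with median-of-ratios scaling. Cd44 was at 1307 to 3267 RPM in NC and 1109 to 1554 RPM in HC, a log2 difference of -0.66 that was called in 3 alternatives (-1.07 in DESeq2, -0.77 with the sex term, -0.99 without NC1). For Apoe and Lpl, 1 of 25 partners was called higher (4%, beside 1.43% of all genes, a difference of a single gene at this size). The gene was the endothelial lipase Lipg, at 0.257 to 0.312 RPM in NC and 0.88 to 3.19 RPM in HC. In NC it is within reach of the 3-read floor. With quantile normalization 2 partners were called, and Lipg was not among them. The partner with the highest mean RPM, the Apoe receptor Lrp1, overlapped (497 to 1615 and 685 to 1132 RPM).

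Around Plin2, 27 genes of lipid droplets and neutral lipid gave 1 call in each direction (7.41%, beside 2.57% of all genes; median 0.07). Pnpla2 (ATGL), the lipase that opens triglyceride stores, was lower in HC, at 81.6, 107.1 and 135 RPM in NC against 49.0, 63.2, 57.7 and 50.3 RPM (log2 difference -0.94, standard error 0.19, limma adjusted p 0.712). Acsl5, which activates fatty acids, was higher, at 67.7 to 84.7 RPM against 104.7 to 133 RPM (0.61, standard error 0.13, limma adjusted p 0.712), just past the fold threshold. Highest by mean RPM was the cholesteryl ester hydrolase Nceh1 (67.1 to 184 RPM and 146 to 272 RPM, not called). No call was made among 8 further genes of the fatty-acid-binding family and its relatives (median 0, with 5 that never reached 1 RPM, 2 of them at 0 in all libraries), 8 of the galectin list (median 0.16) or 15 tetraspanins and Cd9 partners (median 0.29). Those with the highest mean RPM in these lists were Fabp4 (35.2 to 84.1 and 50.2 to 146 RPM), Lgals1 (1507 to 3387 and 2192 to 3159 RPM) and Cd63 (69.7 to 1214.5 and 698 to 1226 RPM). With median-of-ratios scaling, which lowers the median of genes at 1 RPM from 0.16 to 0.04, the medians of the Apoe and Lpl partners, the droplet list, the macrophage markers and the neutrophil markers turned below 0. With quantile normalization those of the receptors, the droplet list, the fatty-acid-binding list, the neutrophil markers and the adipocyte markers did.

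**Figure D4:**
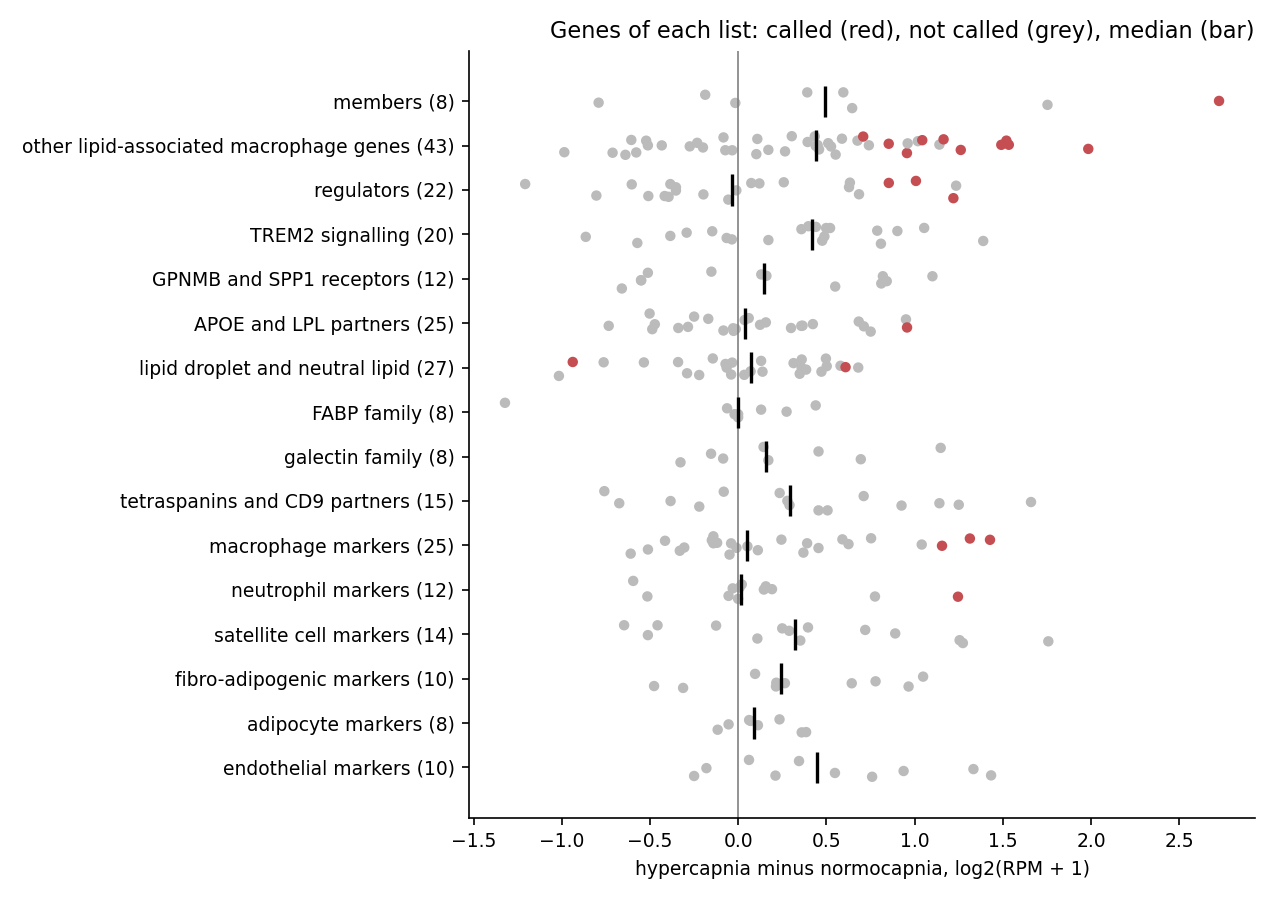
Log2 difference (hypercapnia minus normocapnia) of each gene in the lists, 1 point a gene, red where called by limma by the same thresholds, with the list's median as a bar and the number of genes in the table in parentheses. Gpnmb is the point farthest to the right at 2.73, and 10 of the 43 other lipid-associated macrophage genes are red.

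Markers of other cell types were set beside these values. Satellite cell markers (14 genes, 0 called, median 0.32, and with median-of-ratios scaling 1 called, with quantile normalization a median of 0.045) had a mean log2 level of 7.11, 3.67 and 2.96 in NC and 4.24 to 5.88 in HC, so that NC held both the highest and the lowest libraries. Fibro-adipogenic markers (10 genes, 0 called, median 0.24) ran from 5.07 to 6.82 in NC and 5.89 to 7.02 in HC, and endothelial markers (10 genes, 0 called, median 0.45) from 2.32 to 4.11 and 2.51 to 5.22. Of 8 adipocyte markers 0 were called (median 0.09), and 5 stayed under 1 RPM in all libraries. Adipoq and Plin1, which define fat cells and were picked after their values were seen, did not exceed 0.271 RPM in any library. Lipe, however, averaged 38.7 RPM and Cidec 3.06 RPM, also picked after their values were seen, and a row near 0 need not mean low expression. Of 12 neutrophil markers (median 0.01) 1 was called, Mmp8, also named after its values were seen (7.54 to 17.0 RPM in NC, at least 27.0 RPM in HC), which is 8.33% beside 2.57% of all genes and 0 with quantile normalization. Their part in the differences of the members was not tested.

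The genes with the profile most like that of Gpnmb were taken from the other 8228 genes that averaged 10 RPM or more, by the root mean square difference of log2(RPM + 1), centred for each gene, over the 7 libraries. In order they were BC147527 (0.45), Zranb3 (0.51), Ifit1 (0.52), Slc7a7 (0.61), Oasl2 (0.63), Blnk (0.65), Ms4a7 (0.65), Ms4a14 (0.66), Syngr1 (0.69) and Ddx60 (0.72). Ifit1, Oasl2 and Ddx60 are interferon-stimulated genes, Slc7a7 transports basic amino acids and Blnk is an adaptor of immune receptors. Ifit1 was at 8.40 to 10.475 RPM in NC and 23.0 to 63.2 RPM in HC, and BC147527 at 1.86 to 3.03 RPM and 8.33 to 26.9 RPM. None of the other members was among these 10, and they stood in the same order with Spp1 at rank 460 (1.15), Apoe at 1293, Trem2 at 2094, Plin2 at 5512, Lgals3 at 6659, Cd9 at 6990 and Lpl at 7677.

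**Figure D5:**
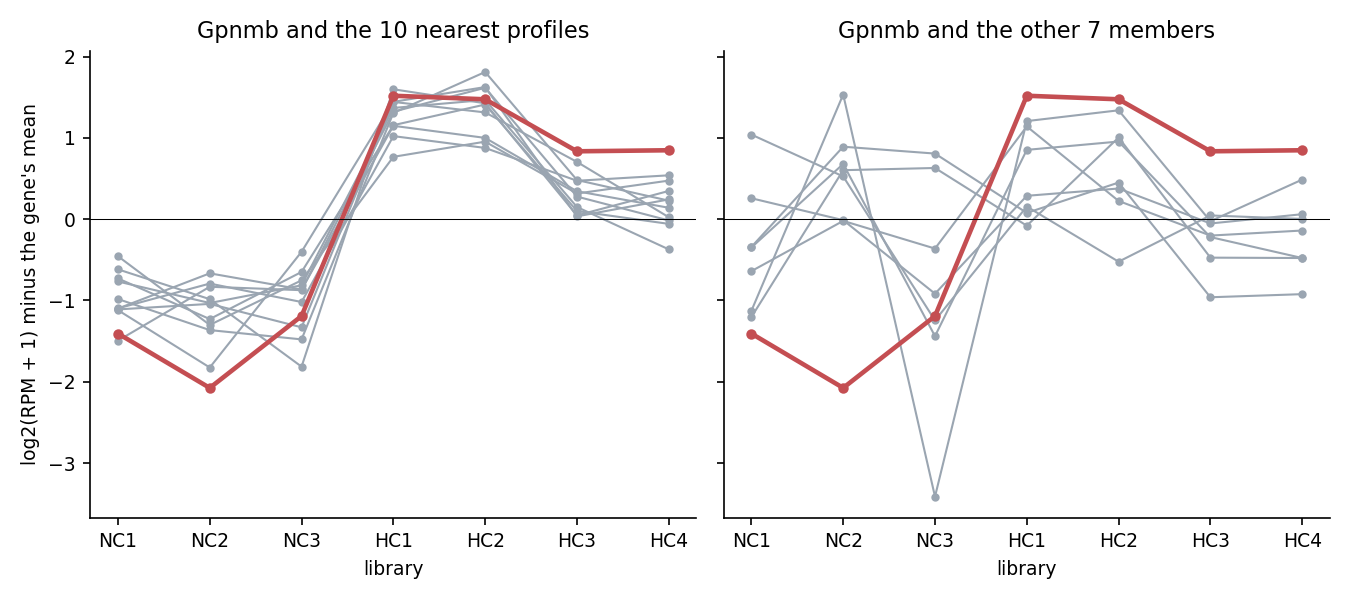
Profiles over the 7 libraries as log2(RPM + 1) minus each gene's mean: Gpnmb in red with the 10 nearest genes in grey on the left, and with the other 7 members in grey on the right. The nearest genes were chosen for following Gpnmb, whereas the other members cross between groups and Lgals3 drops lowest, in NC3.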

How the data were processed

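RNA of sorted Pax7-GFP cells was measured in 3 normocapnia and 4 hypercapnia libraries, grouped by the labels, with the AmpliSeq mouse transcriptome panel. The authors deposited RPM values for 23930 genes, that is, reads scaled to the same total in each library. The submitters' processing notes name the Transcriptome Analysis Console. Which aligner and which build they used is not given in the sources used here. The values are whole multiples of 1 read (within 0.05 reads for 100% of values), which gave back whole reads and totals of 14527445 to 23388710.

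Differences were taken on the log2(RPM + 1) scale by fitting limma (version 3.58.1, R 4.3.3) to the whole table, low genes included. The pseudocount makes differences of low genes smaller. On the recovered reads, edgeR 4.0.16 called 802 genes and DESeq2 1.42.0 called 1304. Other alternatives were pseudocounts of 0.1 and 5 RPM, dropping genes that averaged under 1 RPM, scaling by quantiles or by the median of ratios, the replicate number as a block, leaving out each library and, added after the data were seen, a sex term. In each list the called genes, at most 5 by p, and the gene with the highest mean RPM were named. The members and lists were chosen with earlier results of these data known.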

Additional observations from a re-analysis of the deposited data

Results flagged for a closer look

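Cd63, a tetraspanin of lysosomes and a partner of Cd9, was the 1 result among the members, the named genes and the list scores to pass an adjusted p of 0.05 for the interaction of exposure with sex, and its Y-linked normocapnia arm was 1 library. Its level was 1214.5 and 834 RPM in the Xist-high normocapnia libraries and 1226 and 1096.5 RPM in the Xist-high hypercapnia libraries, a log2 difference of 0.20. In the Y-linked libraries it was 69.7 RPM in NC3 and 698 and 748 RPM in hypercapnia, a log2 difference of 3.36. The interaction was 3.15 (standard error 0.34, limma adjusted p 0.0468 over all genes). That library was NC3, without which the difference over all libraries was -0.14, so sex and this library cannot be told apart, and no difference between the sexes is shown. No group of 4 was found with a sample far from the others.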

How the results depend on the processing

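The log2 difference of Gpnmb ran from 2.47 to 2.91 over 16 alternatives, refits of the libraries by which it was chosen, and the members' median and their median relative to macrophage markers moved by less than the spread between libraries (0.20 to 0.63 and 0.01 to 0.49). The genes called came to 1304 in DESeq2 and to 1210 with the sex term, and the members called to 2 with quantile normalization (Spp1, 0.69, beside Gpnmb) and with the sex term (Trem2, 0.88). Leaving out each library in turn gave 376 to 1990 genes and 1 to 2 members (Lgals3, 3.02, without NC2 and Cd9, -0.86, without NC3). The highest count of genes came without NC1 (1990), followed by 1205 without NC2, and the lowest without HC2 (376) and HC1 (385). The cause was not tested. Outside the members, signs turned for genes that were not called: in edgeR and DESeq2 for Lrp1 (-0.12 and -0.15), Lgals1 (-0.086 and -0.14) and Pax7 (-0.84 and -0.87), and for Lyz2 with quantile normalization (0.048) and the replicate block (0.00067). Across the fits that leave out a library, differences ran from -0.15 to 0.70 for Lrp1, -0.31 to 0.032 for Csf1r, -0.15 to 0.43 for Lgals1, -1.38 to 0.51 for Ms4a4a, -0.14 to 1.92 for Cd63, -0.42 to 0.48 for Lyz2 and -0.35 to 2.47 for Pax7, with a turn without NC3 in all of these but Csf1r and Lgals1, which turned without NC2 (Lrp1 also turned without NC1, and Lyz2 without HC2 and HC4). Replicate numbers do not pair the samples: same-numbered libraries had correlations of -0.35, 0.50 and -0.04 of their deviations, and only number 2 correlated best with its own. With the replicate block 598 genes, 1 member (Gpnmb, 2.83) and 9 of the other lipid-associated macrophage genes were called. Of the named genes, Syngr1, Hexa, Ctsd, Ctsb, Pparg and Pnpla2 were called in all 16 alternatives, Psap and Nr1h3 in 15, Ms4a7 and Il7r in 14, Lipg and Adgre1 in 11, Hif1a and Acsl5 in 9, Cstb and Acp5 in 8 and Vat1 in 3, and of those not called at first Cd44 was called in 3, Cd68 in 2, and Maf, Ms4a4a, Lrp1 and Pax7 in 1 each. Depth did not limit the members, whereas Lipg rests on few reads in normocapnia.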
